A study of Mus musculus with 6 samples.

Results

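The genes described here are 10 genes of heme breakdown and iron handling, measured by RNA-seq in primary mouse granulosa cells (GCs), the follicle cells that nurse the oocyte and make estrogen. They were selected by gene symbol alone as Hmox1, Hmox2, Blvra, Blvrb, Fth1, Ftl1, Tfrc, Slc40a1, Aco1 and Ireb2. All 10 were present among the 16300 genes of the expression table, and all 10 were among the 16292 genes with a mean normalized count of at least 10 that were tested. The cells came from wild type C57BL/6J mice aged 8 to 9 weeks, were cultured for 48 h, deprived of serum for 4 h and then kept in medium (control, n = 3 libraries) or in medium with the androgen dihydrotestosterone (DHT, 25 nM for 24 h, n = 3 libraries). Per the study's methods, each library was made from GCs pooled from 5 mice, with 3 such pooled samples per treatment, so the replicate is a pool and not 1 animal. Whether a control and a DHT library shared a pool is not given in the sources used here.

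Heme oxygenases open the heme ring and release iron, carbon monoxide and biliverdin, and biliverdin reductases turn biliverdin into bilirubin. The iron freed in this way is stored inside ferritin, a shell of heavy and light chains, or leaves the cell through ferroportin, while transferrin receptor brings iron in. Iron regulatory proteins bind a hairpin in the messenger RNAs of these proteins, the iron-responsive element (IRE), when iron is scarce. Binding near the start of an mRNA blocks its translation, and binding in the tail of the transferrin receptor mRNA protects that mRNA from decay. In the ovary, iron and heme also serve steroid synthesis, since the cytochrome P450 enzymes that make steroids carry heme.

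Sequencing depth was similar in both groups, with 36111177 to 41928585 reads assigned to genes per library. The values below are normalized counts, which are reads per gene divided by a factor for the depth of each library. Each of the 10 genes held between 443 and 129175 reads in every library. Markers of GCs ranged widely in level, with Gja1, Inha and Inhba the most abundant, while Fshr (150.1 in control and 145.5 in DHT on average) and Amh (130.3 and 126.3) were low and below the macrophage marker Lyz2 (274.1 and 263.0). Every other macrophage marker in the table had a lower mean than Fshr and Amh in each group, the highest being Cd68 (129.3 and 124.5). The summed level of 9 listed GC markers was 180700 to 186700 in control and 165700 to 172900 in DHT libraries, and Inha (adjusted p = 0.00162) and Foxl2 (adjusted p = 0.049) were lower and Hsd17b1 (adjusted p = 0.00442) higher in DHT by limma. Cyp19a1, a defining gene of estrogen production in GCs, was not among the genes of the table. The labels name GCs as the cell type but give whole ovary as the source of the RNA, while the study's methods name GCs. Macrophages, which recycle heme iron, also express most of the 10 genes. The summed level of the 8 macrophage markers in the table was 547.5 to 647.7 in control and 434.2 to 689.9 in DHT, and Adgre1, C1qa and Cd163 were not in the table. Of those 8, Csf1r alone passed the test, falling from 102 to 64.9 normalized counts (adjusted p = 0.027 by limma), and the part of macrophages in the values below was not tested. Of 8 erythroid markers only Klf1 was in the table, at 7.41 to 17.6 in all libraries. In bulk RNA, fewer cells of a type and less RNA per cell cannot be told apart.

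The hairpins that tie several of these mRNAs to cellular iron are shown here because some of the genes that carry them passed the test below and others did not. A search for the IRE pattern in GENCODE transcripts (GRCm38) found it in 4 of the 10 genes, against 40 of 13740 protein-coding genes of the table (0.291%). The pattern was an unpaired C, 5 paired bases, a loop of the letters CAGTGN and a lower stem with at least 4 of 6 bases paired, and the loop is in capitals in each sequence, which is written 5′ to 3′ along the mRNA.
Fth1, 5′ UTR, chr19:9982732-9982760, plus strand: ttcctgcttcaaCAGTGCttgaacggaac
Ftl1, 5′ UTR, chr7:45459779-45459807, minus strand: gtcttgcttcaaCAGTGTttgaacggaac
Slc40a1, 5′ UTR, chr1:45925465-45925493, minus strand: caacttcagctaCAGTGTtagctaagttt
Tfrc, 3′ UTR, chr16:32631219-32631247, plus strand: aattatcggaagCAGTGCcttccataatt
Tfrc, 3′ UTR, chr16:32631598-32631626, plus strand: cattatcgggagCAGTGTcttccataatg
Tfrc, 3′ UTR, chr16:32631663-32631691, plus strand: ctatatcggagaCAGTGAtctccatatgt
Tfrc, 3′ UTR, chr16:32631710-32631738, plus strand: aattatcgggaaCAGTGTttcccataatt
The 3 hairpins in 5′ UTRs lie where a bound regulatory protein would block translation, which RNA counts do not show. The 4 hairpins of Tfrc lie in its 3′ UTR, where binding is known to change the amount of the mRNA itself. Fth1 and Ftl1 fell with DHT, while Slc40a1 and Tfrc did not pass the test.

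Across the 10 genes, 4 were lower with DHT (Hmox1, Blvrb, Fth1 and Ftl1), 1 was higher (Aco1) and 5 did not pass the test (Hmox2, Blvra, Tfrc, Slc40a1 and Ireb2), in limma's moderated test with Benjamini-Hochberg adjustment over all genes tested, where a call needed an adjusted p of 0.05 or less. Among all tested genes, 760 were lower (4.66%) and 1063 were higher (6.52%). The same 4 genes had all DHT libraries below all control libraries, which 14.7% of tested genes also had, and Aco1 had all DHT libraries above all control libraries, as did 15.9% of tested genes. The median log2 fold change of the 10 genes was -0.25, beside -0.01 over all genes tested. No exact permutation test of 3 libraries against 3 can give a two-sided p below 0.1, so the calls rest on the fit across all genes.

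**Figure D1:**
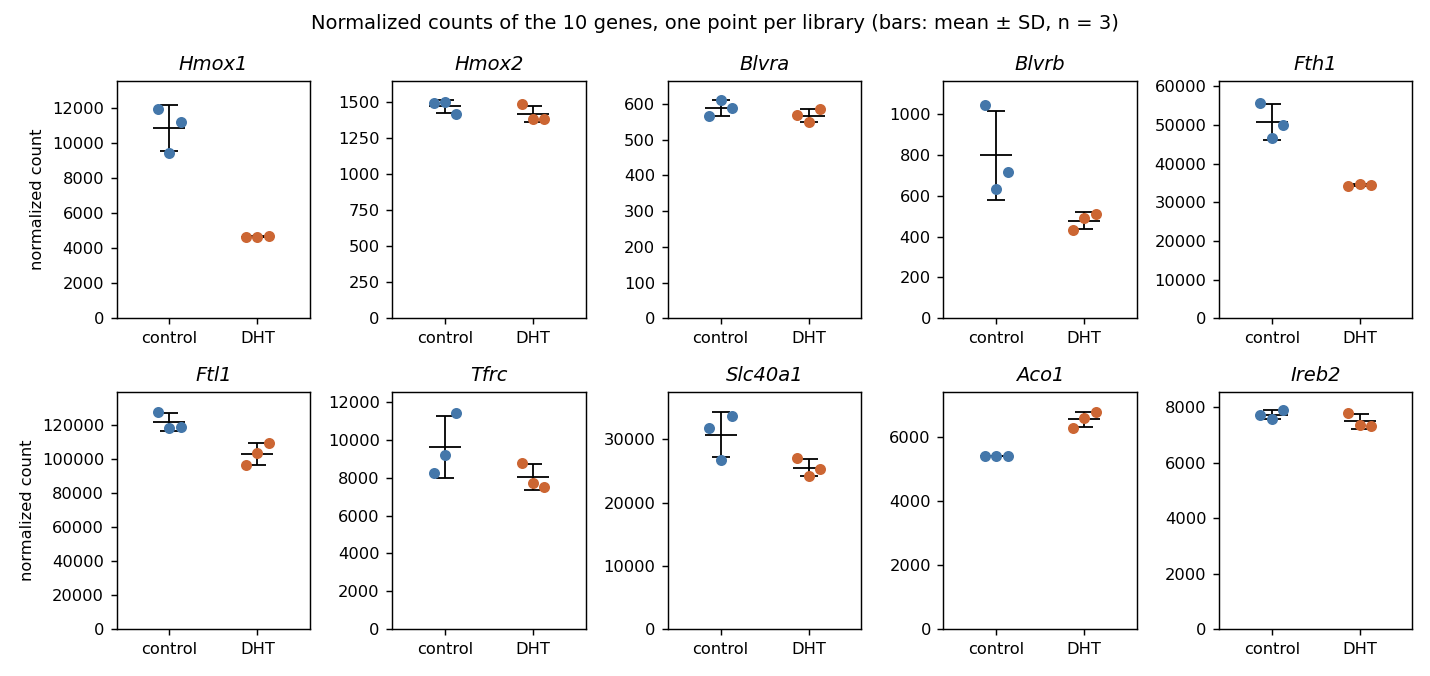
Normalized count (vertical axis, linear and from 0 in each panel) of each of the 10 genes in the 3 control (blue) and 3 DHT (orange) libraries, with the mean and SD as black bars. For Hmox1, Blvrb, Fth1 and Ftl1 every DHT point lies below every control point, for Aco1 every DHT point lies above, and the points of the other 5 genes overlap.

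Hmox1, the inducible heme oxygenase (ENSMUSG00000005413, chr8:75093621-75100589, plus strand), had the largest change of the 10. Its normalized count was 11991, 9455 and 11208 in the control libraries and 4652, 4655 and 4697 in the DHT libraries. The lowest control library was thus about double any DHT library, and the 3 DHT libraries were nearly identical. Their SD of 25.2 is below the 68.3 that counting alone would give, so limma's estimate of the spread, which draws on all genes, is the error to use here. The mean fell from 10885 ± 1299 to 4668 ± 25.2 (SD, n = 3), which is 2.32-fold lower (log2 fold change -1.21, SE 0.07, 95% interval -1.38 to -1.04, adjusted p = 4.9e-05 by limma). Hmox1 was the one gene of the 10 with a log2 fold change below -1 that passed the test, a criterion met by 65 of all tested genes (0.399%). By size of p it ranked at 19 of 16292 genes, and by size of fall at 85. Leaving out any 1 library kept its log2 fold change between -1.31 and -1.14, and it passed under each of 16 alternative settings.

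Hmox2, the constitutive heme oxygenase (ENSMUSG00000004070, chr16:4726361-4766742, plus strand), stood at 1491, 1501 and 1417 in control and at 1483, 1385 and 1384 in DHT libraries. The groups overlapped, and the log2 fold change was -0.05 (95% interval -0.16 to 0.06, adjusted p = 0.559 by limma). Its exons share 892 bases with Cdip1 on the other strand, and the library kit did not mark strand, so reads from those bases cannot be assigned to either gene. Whether such reads were dropped or counted is not given in the sources used here. The level of Hmox2 and the ratios to it are uncertain to that extent. Within each library, the level of Hmox1 per kilobase of exon was 10.2, 7.98 and 10.01 times that of Hmox2 in control, and 3.97, 4.25 and 4.30 times in DHT. The ratio went from 9.39 ± 1.23 to 4.17 ± 0.177 (SD, n = 3) without overlap between the groups. Hmox1 therefore remained the more abundant heme oxygenase transcript in all 6 libraries.

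Of the biliverdin reductases, as of the oxygenases, 1 gene was lower and its counterpart did not pass the test. Blvrb, a flavin and biliverdin reductase (ENSMUSG00000040466, chr7:27447978-27466144, plus strand), had 1046, 631.9 and 715.2 normalized counts in control and 433.5, 493.1 and 510.4 in DHT libraries. Control replicate 1 stood well above its group, and every DHT library lay below every control library. The mean fell from 797.6 ± 219 to 479.0 ± 40.3 (log2 fold change -0.70, SE 0.16, 95% interval -1.07 to -0.34, adjusted p = 0.0248 by limma). This call was lost without DHT replicate 1 (adjusted p = 0.0796), 2 (0.0703) or 3 (0.0697) and without the intensity trend (0.12), and the log2 fold change ranged from -0.85 to -0.49 without 1 library, the value nearest to 0 being that without control replicate 1. Blvra, the main biliverdin reductase of adult tissue (ENSMUSG00000001999, chr2:127070665-127097084, plus strand), had 567.9, 612.4 and 588.3 in control and 568.5, 549.8 and 585.5 in DHT libraries. Those groups overlapped, with a log2 fold change of -0.05 (95% interval -0.19 to 0.09, adjusted p = 0.644). Per kilobase of exon, Blvrb stood at 1.62, 0.907 and 1.07 times Blvra in control and at 0.670, 0.789 and 0.767 times in DHT libraries, so that Blvra was the higher of the pair in every DHT library. Per kilobase of the longest principal transcript, Blvra was the higher in only 2 of the DHT libraries, with overlapping ranges.

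Both ferritin chains fell, and the heavy chain had the larger log2 fold change. Fth1, the heavy chain that oxidizes iron for storage (ENSMUSG00000024661, chr19:9980598-9985098, plus strand), had 55787, 46655 and 50042 normalized counts in control and 34207, 34690 and 34473 in DHT libraries. As with Hmox1 and Blvrb, control replicate 1 was the highest and control replicate 2 the lowest of the controls, and the DHT libraries lay close together. The mean fell from 50828 ± 4617 to 34457 ± 242 (1.47-fold lower, log2 fold change -0.56, SE 0.06, 95% interval -0.70 to -0.42, adjusted p = 0.000691 by limma). The call held under each of the 16 alternatives, with -0.62 to -0.49 when 1 library was left out. Ftl1, the light chain that helps form the mineral core (ENSMUSG00000050708, chr7:45457944-45459884, minus strand), had 127810, 118397 and 119167 in control and 96407, 103602 and 109331 in DHT libraries. Its groups did not overlap, and the mean went from 121790 ± 5227 to 103110 ± 6476 (log2 fold change -0.24, SE 0.06, 95% interval -0.38 to -0.10, adjusted p = 0.0389).

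The Ftl1 call was the weakest of the 5. It was lost without control replicate 1 (adjusted p = 0.0816) or 2 (0.0602), without DHT replicate 1 (0.123), 2 (0.135) or 3 (0.0547), and without the intensity trend (0.104). Quantile normalization, which forces 1 distribution on all libraries, brought its log2 fold change to -0.43. Exons of Ftl1 overlap Gm10252 on the other strand by 355 bases and a small RNA gene, Gm22133, by 109 bases. The annotation also holds pseudogenes named after both chains (Fth-ps2, Fth-ps3, Ftl1-ps2 and Ftl2-ps), whose likeness in sequence was not measured. Per the study's methods only uniquely mapped reads were counted, so any reads shared with those pseudogenes were not counted and both levels are uncertain to that extent.

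Ferritin transcripts were among the most abundant of the cells. Ftl1 alone stood at the 99.96 percentile of the tested genes with a known exon length, by mean normalized count per kilobase of exon. Fth1 and Ftl1 together took 0.482%, 0.429% and 0.436% of all reads assigned to genes in control and 0.336%, 0.351% and 0.365% in DHT libraries. The level of Fth1 per kilobase relative to that of Ftl1 was 0.169, 0.152 and 0.162 in control and 0.137, 0.129 and 0.122 in DHT libraries, lower in every DHT library than in any control library.

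**Figure D2:**
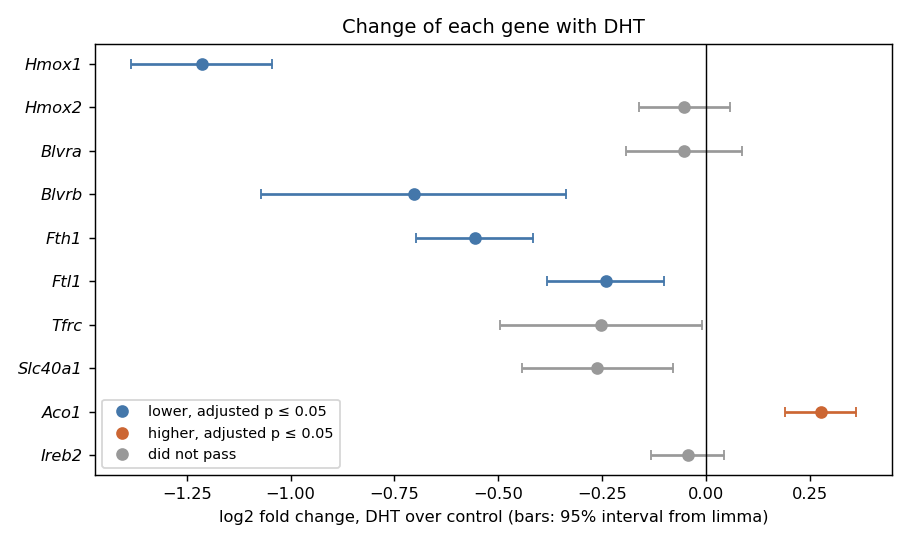
The log2 fold change of each of the 10 genes, DHT over control (horizontal axis), with its 95% interval from limma. Blue marks the 4 genes that were lower with an adjusted p up to 0.05, orange the 1 that was higher and grey the 5 that did not pass, with Hmox1 at -1.21 the farthest from 0.

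Iron import and export showed lower means in DHT that did not pass the test. Tfrc, the transferrin receptor (ENSMUSG00000022797, chr16:32608920-32632794, plus strand), had 8247, 9223 and 11434 normalized counts in control and 8809, 7759 and 7523 in DHT libraries. Control replicate 1 lay below DHT replicate 1, and the log2 fold change was -0.25 (SE 0.11, 95% interval -0.50 to -0.01, adjusted p = 0.183 by limma). Without control replicate 3 it was -0.12, and without control replicate 1 it was -0.36, with the test not passed in either case. Slc40a1 encodes ferroportin, the known exporter of iron (ENSMUSG00000025993, chr1:45908068-45926523, minus strand). It had 31748, 26790 and 33654 in control and 27026, 24280 and 25323 in DHT libraries. The overlap came from a single pair of libraries, control replicate 2 and DHT replicate 1. Its log2 fold change was -0.26 (SE 0.08, 95% interval -0.44 to -0.08, adjusted p = 0.0717 by limma), and it passed without control replicate 2 (adjusted p = 0.00825) and in the DESeq2 test on recovered reads (0.00384). Relative to Fth1, Tfrc per kilobase went from 0.107 ± 0.0228 to 0.131 ± 0.0119 with overlap between the groups.

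Of the iron regulatory proteins, Aco1 rose and Ireb2 did not pass. Aco1 encodes IRP1, a protein that is a cytosolic aconitase when it holds an iron-sulfur cluster and binds IREs when it does not (ENSMUSG00000028405, chr4:40143081-40198338, plus strand). It had 5410, 5385 and 5402 normalized counts in control and 6277, 6585 and 6759 in DHT libraries. All DHT libraries were higher than the control libraries, whose SD of 12.7 is below the 73.5 of counting error alone. The mean rose from 5399 ± 12.7 to 6540 ± 244 (1.21-fold, log2 fold change 0.28, SE 0.04, 95% interval 0.19 to 0.36, adjusted p = 0.00204 by limma), and the call held under each of the 16 alternatives. Ireb2 encodes IRP2, which is degraded when iron is plentiful (ENSMUSG00000032293, chr9:54863789-54912530, plus strand). Its libraries had 7725, 7586 and 7897 in control and 7812, 7367 and 7328 in DHT, with overlap and a log2 fold change of -0.04 (95% interval -0.13 to 0.04, adjusted p = 0.528). Per kilobase, Aco1 was 1.48, 1.497 and 1.44 times Ireb2 in control and 1.69, 1.88 and 1.95 times in DHT libraries.

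**Figure D3:**
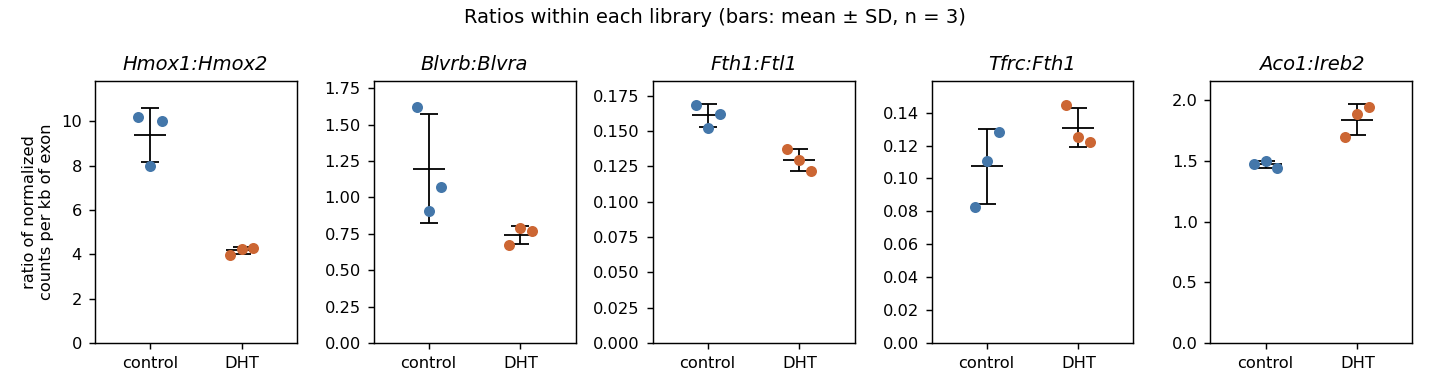
Ratio of normalized counts per kilobase of annotated exon between 5 pairs of the genes within each library (vertical axes, linear and from 0), for 3 control (blue) and 3 DHT (orange) libraries, with mean and SD. Hmox1 to Hmox2, Blvrb to Blvra and Fth1 to Ftl1 are lower in every DHT library, Aco1 to Ireb2 is higher in every DHT library, and Tfrc to Fth1 overlaps.

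To compare the levels of the genes with each other, normalized counts were divided by the length of all annotated exons. In control libraries the order was Ftl1 at 90889 per kilobase, Fth1 at 14652, Hmox1 at 6216, Slc40a1 at 3415, Tfrc at 1558, Aco1 at 1201, Ireb2 at 816, Hmox2 at 663, Blvrb at 287 and Blvra at 241. Neighbours in this order kept their places in all 3 libraries, other than Blvrb and Blvra, whose ranges overlapped. In DHT libraries Hmox1 at 2666 came below Slc40a1 at 2838, Aco1 at 1455 stood beside Tfrc at 1298 with overlapping ranges, and Blvrb at 172 came below Blvra at 232. The place of Hmox1 depends on the length used: per kilobase of the longest principal transcript, Slc40a1 (9119) was above Hmox1 (6937) in control too, and Blvra and Blvrb overlapped in DHT.

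Hmox1, Blvrb, Fth1 and Ftl1 had the same order within the control group, in which replicate 1 was the highest and replicate 2 the lowest. The share of all tested genes with this order was not counted. Over all 6 libraries, Pearson's r of log2 values with Hmox1 was 0.992 for Fth1, 0.909 for Ftl1, 0.901 for Blvrb and -0.958 for Aco1. These values are a description, since the 6 libraries fall into 2 groups and every gene that differs between them shares that difference. Among 11632 genes with a mean of at least 100, the genes most like Hmox1 by this measure were Lrrc4 (r = 0.998), Selenoh (0.997), Ermp1 (0.997), Smad6 (0.996) and Tbl1x (0.995).

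Of the genes known to regulate Hmox1 transcription, most did not pass the test. NRF2, encoded by Nfe2l2, is the activator that induces Hmox1, Blvrb and both ferritin chains under oxidative stress, KEAP1 holds it in check, and BACH1 is a repressor that heme releases from DNA. Nfe2l2 fell from 8491, 8033 and 7810 normalized counts in control to 6151, 6519 and 6415 in DHT libraries, without overlap (log2 fold change -0.35, SE 0.04, adjusted p = 0.00114 by limma). Keap1 had a log2 fold change of -0.15 (adjusted p = 0.0534) and Bach1 of 0.04 (adjusted p = 0.828). Of the 11 regulators listed, 3 were higher, 1 was lower and 7 did not pass, with a median of 0.04, beside 6.52% higher and 4.66% lower among all tested genes. The higher ones were Hif1a, the oxygen-sensing factor (log2 fold change 0.30, adjusted p = 0.0021), Mafk, a small partner of NRF2 and BACH1 (0.42, adjusted p = 0.00466), and Nfe2l1, a relative of NRF2 (0.14, adjusted p = 0.0409). By quantitative PCR after the same dose and time, the study reported no effect of DHT on Hif1a mRNA in mouse GCs. The Nfe2l1 call was lost when any 1 library was left out (adjusted p 0.0507 to 0.178), and Keap1 passed without control replicate 3 (0.0416), with a mean of at least 50 (0.0445) and with quantile normalization (0.0457).

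Targets of NRF2 outside heme and iron metabolism fell alongside Hmox1, Blvrb and ferritin. Of 12 listed, 10 were lower and 0 higher in limma, edgeR and DESeq2 alike, while without the intensity trend 5 were lower, with a median log2 fold change of -0.48, beside 4.66% lower among all tested genes. Nqo1, a quinone reductase, had the largest change at -1.89 (adjusted p = 0.000397 by limma). Gclm, the modifier subunit of the enzyme that starts glutathione synthesis, had 7444, 5163 and 6607 normalized counts in control and 3526, 3587 and 3579 in DHT libraries (log2 fold change -0.83, adjusted p = 0.00162). Txnrd1, a thioredoxin reductase, had 40904, 29534 and 36094 in control and 21458, 22001 and 21734 in DHT libraries (-0.70, adjusted p = 0.00233). In both genes control replicate 1 was the highest and control replicate 2 the lowest, the order seen for Hmox1, Blvrb, Fth1 and Ftl1. How many of all tested genes have this order was not counted. Abcc1, an exporter of glutathione conjugates, fell by 0.43 (adjusted p = 0.00149). Those of the list that did not pass were Me1, a malic enzyme, at 0.03 (adjusted p = 0.853) and Osgin1 at -0.49 (adjusted p = 0.0661). Me1 and Osgin1 were named after their values were seen. The list was drawn up with the falls of Hmox1 and Nqo1 in these libraries known, so its direction is not independent evidence.

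The core letters of the element that NRF2 binds, TGACNNNGC or TGAGNNNGC, were searched on both strands of RefSeq promoter windows from 250 bases before to 50 after each start site (GRCm38.p6). They occur in 4518 of 14481 such windows (31.2%). Windows were at hand for 8 of the 10 genes and not for Hmox1 and Slc40a1. A match lay in Aco1, Blvra and 1 of the 2 windows of Blvrb, each on the minus strand, and none in the windows of Hmox2, Fth1, Ftl1, Tfrc and Ireb2. The matches of the biliverdin reductases are shown because 1 of the pair passed the test and the other did not, with the matched letters in capitals on the plus strand.
Blvrb, chr7:27447893-27447933: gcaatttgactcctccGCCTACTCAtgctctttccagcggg
Blvra, chr2:127070592-127070632: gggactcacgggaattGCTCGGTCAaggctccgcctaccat
A match of these letters is a description of the window and not a site of binding. The lack of a match holds for these short windows alone and does not show that a gene lacks the element elsewhere. Blvrb, which fell, and Blvra, which did not pass the test, both held one.

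Heme synthesis showed lower levels of 2 of its 8 tested enzymes and 0 higher in limma, edgeR or DESeq2 or at an unadjusted p below 0.05, with a median log2 fold change of -0.03, beside 4.66% lower and 6.52% higher among all tested genes. At an unadjusted p below 0.05, 11.8% of all tested genes were lower and 13.4% higher. Alas1, the rate-limiting enzyme outside red cells and one that heme represses, had 3245, 3140 and 3488 normalized counts in control and 2463, 2428 and 2363 in DHT libraries. It fell without overlap between the groups (log2 fold change -0.44, SE 0.05, adjusted p = 0.000549 by limma). Cpox, coproporphyrinogen oxidase, went from 7834, 7215 and 7813 to 6065, 5407 and 5413 (-0.44, SE 0.05, adjusted p = 0.00129). Alad and Urod, enzymes of intermediate steps, had log2 fold changes of -0.12 (adjusted p = 0.339) and -0.03 (adjusted p = 0.703). The erythroid isoform Alas2 was not in the table.

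Among 13 tested genes of heme transport and binding, 3 were lower and 1 was higher, with a median of 0.06. Among all tested genes 4.66% were lower and 6.52% higher, and the single higher gene is a share near that background. Slc48a1, the transporter that returns heme from lysosomes to the cytosol, had 2837, 2644 and 2560 normalized counts in control and 1988, 2075 and 2039 in DHT libraries (log2 fold change -0.40, SE 0.05, adjusted p = 0.00102 by limma). The membrane heme-binding proteins Pgrmc1 and Pgrmc2 moved in opposite directions. Pgrmc1 went from 14533 ± 1430 to 11161 ± 397 (log2 fold change -0.38, adjusted p = 0.00808), and Pgrmc2 from 8254 ± 136 to 10359 ± 563 (0.33, adjusted p = 0.00206). Hebp2, a cytosolic heme-binding protein, had a log2 fold change of -0.24 at the edge of the threshold (adjusted p = 0.0497). Its call was lost in edgeR (adjusted p = 0.0535), in DESeq2 (0.0911) and without any library other than control replicate 3.

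The ferroxidases that load exported iron onto transferrin moved in opposite directions. Cp, ceruloplasmin, had 119.7, 122.7 and 102.8 normalized counts in control and 292.6, 310.9 and 326.5 in DHT libraries. It rose 2.68-fold without overlap (log2 fold change 1.42, SE 0.11, adjusted p = 0.000118 by limma), the largest rise of any gene in the lists described here. Heph, hephaestin, had 6825, 5709 and 4516 in control and 3185, 3795 and 3352 in DHT libraries (log2 fold change -0.71, SE 0.13, adjusted p = 0.00885). Per kilobase of exon, Heph remained the more abundant of the pair, at 450 against 32.4 in DHT. Of the 5 genes tested of iron export and the hepcidin axis, these were the 2 that passed, and the median log2 fold change was 0.11, beside 6.52% higher and 4.66% lower among all tested genes. Tmprss6, a protease that restrains hepcidin, was at 0.60 (adjusted p = 0.15) and Neo1, neogenin, at -0.13 (adjusted p = 0.171). Hamp, Hamp2, Hephl1 and Hjv were not in the table.

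Iron uptake genes other than Tfrc gave 2 higher and 0 lower of 12, with a median of 0.03, beside 6.52% higher and 4.66% lower among all tested genes. At an unadjusted p below 0.05, 4 were higher and 2 lower, beside 13.4% and 11.8% of all tested genes, and edgeR and DESeq2 called 0 of them lower. Both higher genes were metalloreductases that reduce iron for transport, Steap2 (log2 fold change 0.28, adjusted p = 0.00986 by limma) and Steap3 (0.29, adjusted p = 0.0184). Trf, transferrin, was at -0.45 (adjusted p = 0.0549, and 0.0456 among genes with a mean of at least 50) and Hfe, a partner of transferrin receptor, at -0.46 (adjusted p = 0.117). Of the 3 iron chaperone and ferritin turnover genes 0 passed in limma, edgeR or DESeq2, and 0 had an unadjusted p below 0.05, a list too small to read against the background. They were Ncoa4, the receptor that delivers ferritin to lysosomes, at 0.00 (adjusted p = 0.972), Pcbp1 at -0.07 (adjusted p = 0.201) and Pcbp2 at 0.03 (adjusted p = 0.704).

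Iron sensing outside IRP1 and IRP2 gave 0 calls among 4 genes in limma, edgeR or DESeq2 and 0 at an unadjusted p below 0.05, with a median of -0.04. So small a list cannot be read against the 6.52% higher and 4.66% lower of all tested genes. Fbxl5, which targets IRP2 for degradation, had a log2 fold change of -0.05 (adjusted p = 0.546 by limma). Transcripts known to carry an IRE included Cdc14a at 0.04 (adjusted p = 0.85) and Epas1 at -0.52 (adjusted p = 0.203). Epas1 had 1068, 741.6 and 504.0 normalized counts in control and 445.2, 613.1 and 491.9 in DHT libraries, and passed only without control replicate 3 (log2 fold change -0.80, adjusted p = 0.0142). Without control replicate 1 its log2 fold change was -0.26 (adjusted p = 0.455).

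Of 26 genes of mitochondrial iron and iron-sulfur assembly, 2 were higher and 0 lower, with a median of 0.02, a share of higher genes near the 6.52% of all tested genes. DESeq2 called 3 higher and edgeR 2, and at an unadjusted p below 0.05 there were 6 higher and 0 lower, beside 13.4% and 11.8% of all tested genes, with 0 lower in edgeR and DESeq2. Those higher were Fdx1 (log2 fold change 0.28, adjusted p = 0.0239 by limma) and Fdxr (0.32, adjusted p = 0.0405), ferredoxin and its reductase, which also carry electrons to the mitochondrial P450 enzymes of steroid synthesis. Nfu1 at 0.19 (adjusted p = 0.0593) and Abcb8 at 0.15 (adjusted p = 0.0791) did not pass. The calls of Steap3, Fdx1 and Fdxr were each lost without control replicate 1, DHT replicate 2 or DHT replicate 3, with adjusted p between 0.051 and 0.15, and that of Fdxr also without control replicate 2 or DHT replicate 1.

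Over all 9 lists, 94 of 102 listed genes were tested, of which 9 were higher, 17 lower and 68 did not pass, with a median log2 fold change of -0.01, beside 6.52% higher and 4.66% lower among all tested genes. Of the 17 lower genes, 10 belonged to the NRF2 target list. Without the intensity trend the calls of Pgrmc1 (adjusted p = 0.0736 by limma), Steap2 (0.078), Heph (0.0808), Mafk (0.0584), Steap3 (0.077), Fdx1 (0.116), Fdxr (0.158), Nfe2l1 (0.124) and Hebp2 (0.0782) were lost, together with 5 NRF2 targets named after their values were seen, Gclc (0.086), Srxn1 (0.0632), Slc7a11 (0.086), Gsr (0.086) and Pgd (0.0823). That left 3 genes higher and 9 lower. The lists were drawn up with earlier results of these libraries known.

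**Figure D4:**
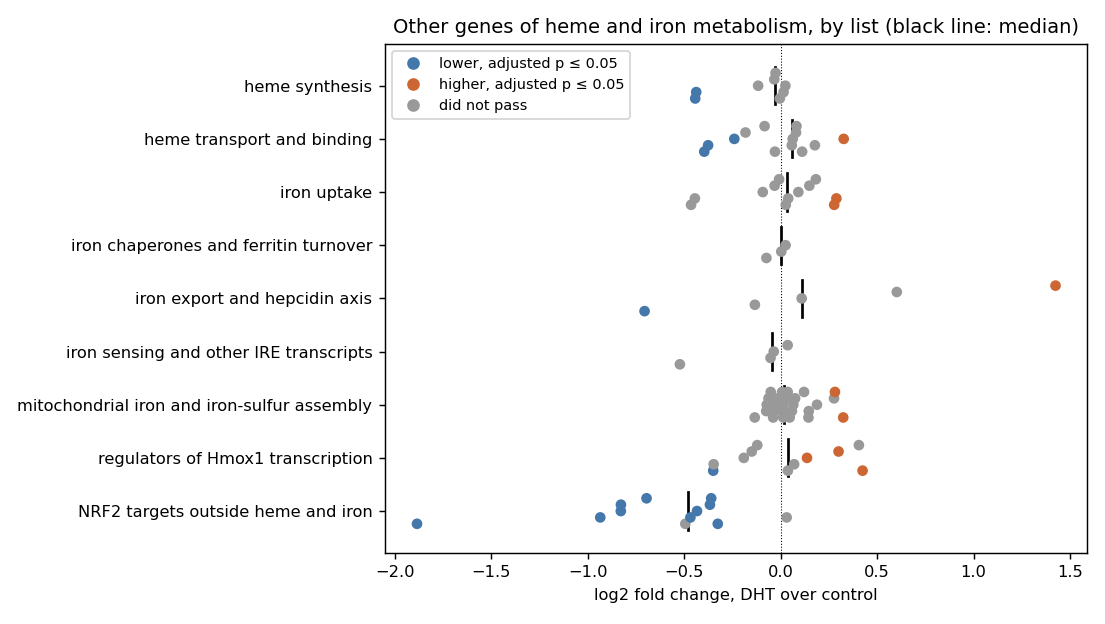
The log2 fold change, DHT over control (horizontal axis), of the 94 tested genes of the 9 lists, 1 point per gene, with each list's median as a black line. Blue points are lower and orange points higher with an adjusted p up to 0.05, and the NRF2 target list, with a median of -0.48, lies mostly to the left of 0 while Cp at 1.42 is the farthest to the right.

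**Figure D5:**
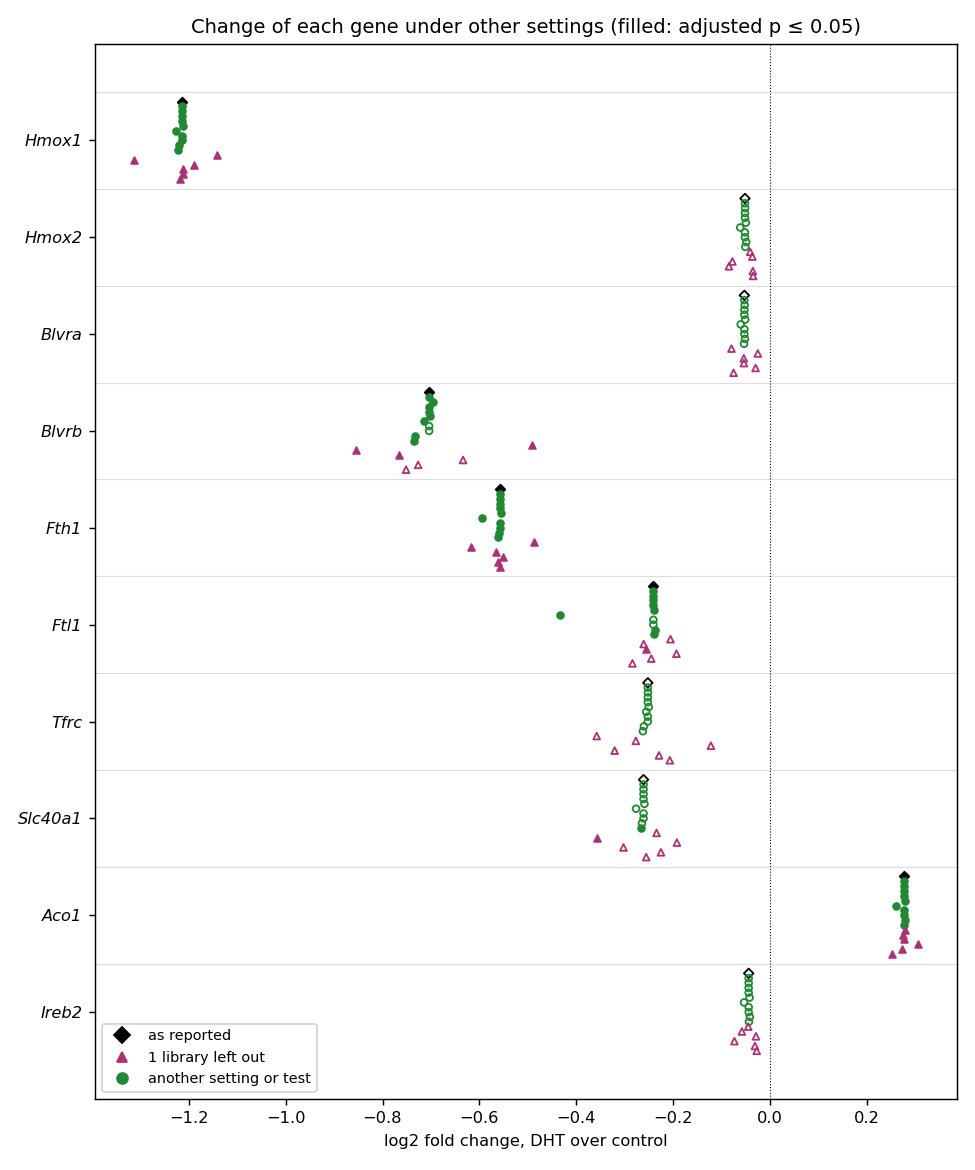
The log2 fold change of each of the 10 genes, DHT over control (horizontal axis), as reported (diamonds), with 1 library left out (triangles) and under other settings or tests (circles), filled where the adjusted p was at most 0.05. Hmox1, Fth1 and Aco1 are filled throughout, while Blvrb, Ftl1 and Slc40a1 hold both filled and open symbols.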

How the data were processed

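RNA-seq of 6 mouse GC libraries was examined. Per the submitters' notes, the authors trimmed reads with Trimmomatic 0.36, aligned them to GRCm38 with STAR 2.5.2b and counted unique exon reads with featureCounts (Subread 1.5.2); the strand setting and annotation release are not given in the sources used here. The deposited signal is a normalized count, reads divided by a DESeq2 size factor, and whole reads were recovered for 100% of values (relative tolerance 1e-06). The deposited log2 fold change and p-value columns of the authors' own comparison were not used. Genes with a mean of at least 10 were tested on log2(value + 1), on which fold changes of low genes are understated, with limma 3.58.1 (R 4.3.3; moderated test, intensity trend, two-sided, Benjamini-Hochberg over 16292 genes); calls needed an adjusted p of at most 0.05. Scripts were tested on simulated data. Depth was 36111177 to 41928585 reads per library. Alternatives were pseudocounts 0.5 and 8, no filter or a mean of at least 50, TMM scaling, quantile normalization, no trend, a replicate block, edgeR 4.0.16 and DESeq2 1.42.0 on the recovered reads, and each library left out; where a group has 2 libraries, limma pools the spread over both groups. Exon lengths, positions and IREs came from GENCODE vM21 (GRCm38), promoters from RefSeq (GRCm38.p6). Named were the 10 genes, the 4 genes of smallest p in each of 9 pathway lists (1 of these genes is not reported here), Nfe2l2, Keap1, Bach1, Fbxl5, Ncoa4 and the 5 genes most correlated with Hmox1. The genes and lists were chosen with earlier results of these data known.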

Additional observations from a re-analysis of the deposited data

How the results depend on the processing

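Hmox1, Fth1 and Aco1 kept their direction and call under all 16 alternatives. Without the intensity trend, 501 genes were higher and 303 lower (40 with a log2 fold change below -1), beside 1063, 760 and 65 as reported, with 2 of the 10 genes lower and 3 higher and 9 lower in the wider lists. A mean of at least 50 left 42 genes below -1. With 1 library left out, 581 to 1237 genes were higher and 350 to 857 lower (41 to 91 below -1), 2 to 4 of the 10 genes were lower, and 5 to 10 of the wider lists were higher and 15 to 19 lower. Over the 10 genes and 16 alternatives, 146 of the results stayed on their side of the threshold, 12 lost the call and 2 gained it (Slc40a1). Genes near 0 that did not pass changed sign: Ncoa4 to -0.0096 with quantile normalization and from -0.0154 to 0.0328 with 1 library left out, Cdc14a from -0.0481 to 0.1263 and Bach1 from -0.0327 to 0.1397 over the same libraries. The scalings moved the median log2 fold change of all genes by less than 0.1. Each of the 10 genes had at least 443 reads per library. RNA counts show neither IRE binding nor protein.

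Samples of the 2 groups share replicate numbers, which the labels do not tie to a shared pool or day. The deviations of same-numbered libraries correlated at 0.0058, 0.0666 and -0.2385, so the numbers were not taken as pairs. With a replicate block, 633 genes were higher and 357 lower, 986 of the 990 being among the 1823 called without it. Of the 10 genes, 2 were then lower (Hmox1 and Fth1) and 1 higher (Aco1), with Blvrb at an adjusted p of 0.0642 and Ftl1 at 0.122 in limma.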
